A study of Mus musculus with 3 samples.

Results

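Smooth muscle cells of the aorta were compared between mice that carry human APOE2 and mice that carry human APOE3, gene by gene, in single-cell RNA sequencing of pooled aortas. A cell was taken as smooth muscle when it had at least 200 detected genes, under 20% mitochondrial transcripts and at least 5000 transcript molecules (UMIs), when Acta2 and Tagln together made up at least 2% of its UMIs, when Dcn made up less than 0.5%, and when it held fewer than 3 UMIs of C1qa, C1qb and C1qc. The rule found 6600 cells in the APOE2 library and 4910 in the APOE3 library. These 11510 cells came from 26757 cells that passed the limits on genes and mitochondrial transcripts in the 3 libraries of the series, which held 28506 deposited barcodes. The third library, from APOE4 mice, gave 5674 cells by the same rule and is used only to show which of the other two a value lies near.

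In all groups the mouse Apoe gene had been exchanged for a human allele at its own locus, on a C57BL/6J background, so no group kept mouse apoE. The mice were males, 12 weeks old at the start of 16 weeks on a Western diet with 42% fat and 0.2% cholesterol. The whole aorta, from the arch to the iliac bifurcation, was digested to single cells, and each genotype gave 1 library, pooled from 6 mice for APOE2, from 5 for APOE3 and from 7 for APOE4. There was thus 1 library on each side and no replicate, a cell could not be traced to its mouse, and no difference was tested. Intervals given below are 95% intervals for counting error only. They take each UMI as independent and so leave out the spread between cells. They also leave out the variation between mice, digestions and library preparations, which cannot be told apart from genotype in this design.

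Vascular smooth muscle cells build the contractile layer of the aortic wall, where actin, smooth muscle myosin and their partners set the tone of the vessel and elastin and proteoglycans made by the same cells give it recoil. In atherosclerosis these cells can lose contractile proteins, take up lipoprotein cholesterol and turn on genes of matrix, inflammation or cartilage, a shift known as phenotypic modulation. Apolipoprotein E carries lipoprotein particles to receptors on the liver and other tissues, and its human forms differ in how well they bind them.

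The chosen APOE2 cells held 109409985 UMIs and the APOE3 cells 107438328, spread over unequal numbers of cells. The median APOE2 cell had 14564 UMIs, the median APOE3 cell 19950 and the median APOE4 cell 15660. Markers that the rule did not use describe the chosen cells, and no cells outside the rule are set beside them. All 10 markers of the smooth muscle list (among them Myh11, Cnn1, Des and Synpo2) were measured and none differed by 1.5-fold, with summed levels of 18165, 18286 and 17087 CPM (UMIs of a gene in 1000000 UMIs of its library) in APOE2, APOE3 and APOE4. Over all genes with a mean of at least 5 CPM, 96.7% lay within 1.5-fold. The 10 macrophage markers summed to 11.5, 9.21 and 7.05 CPM and none reached a mean of 5 CPM. The 10 fibroblast markers summed to 1548, 2072 and 1693 CPM. Erythroid markers, which are haemoglobin genes for the most part, summed to 638, 145 and 454 CPM, and neutrophil markers to 30.1, 15.7 and 1.07 CPM. Between the APOE2 and APOE3 libraries, 13 barcodes were shared among the smooth muscle cells. Close to the limits of the rule, 193 APOE2 and 56 APOE3 cells lay within 1000 UMIs above the limit on UMIs and 178 and 67 within 1000 below it, and 1760 and 440 cells had 2 to 3% of Acta2 and Tagln against 787 and 143 that missed it with 1 to 2%.

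The exchanged gene itself was looked at first. UMIs assigned to mouse Apoe (chromosome 7, 19696109 to 19699188, minus strand of GRCm38) stood at 158 CPM in APOE2, 162 in APOE3 and 155 in APOE4. The APOE2 to APOE3 log2 ratio was -0.04 (-0.07 to -0.01). All 3 groups lack the mouse gene, the reads were aligned to the mouse genome, and whether these UMIs came from the human transcript was not tested, so this level checks no label. Among the genes within 5 Mb of Apoe, 66 reached a mean of 5 CPM. Of these, 0 were at least 1.5-fold higher and 1 was lower, against 1.79% and 1.52% of all genes. In fibroblasts the Apoe log2 ratio was -1.12 (-1.18 to -1.05).

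Of 9818 genes with a mean of at least 5 CPM over the APOE2 and APOE3 libraries, 176 (1.79%) were at least 1.5-fold higher in APOE2 and 149 (1.52%) at least 1.5-fold lower, and the median log2 ratio was 0.01. At 2-fold the counts were 55 and 28. Most genes thus lay within 1.5-fold. The genes described below are those of gene lists, of the largest ratios and some picked after their values were seen, and they leave out most of the genes past 1.5-fold. A gene under 5 CPM in 1 library was measured only through its level in the other, so a list's count of measured members can hold members that had to differ.

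**Figure D1:**
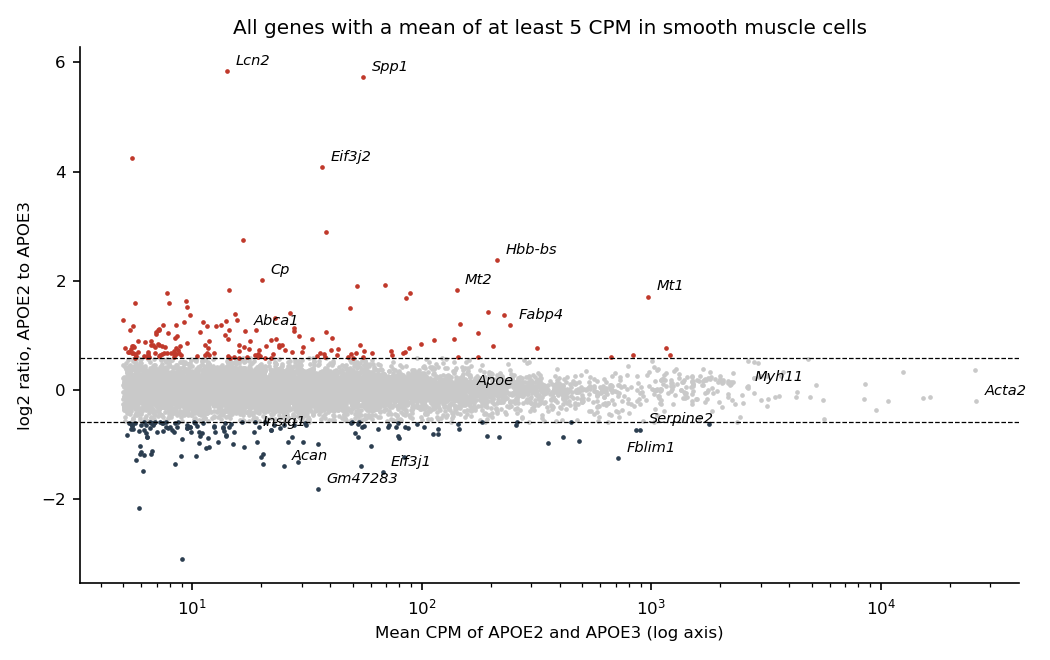
Each point is 1 gene with a mean of at least 5 CPM; the horizontal axis is the mean CPM of both libraries on a log scale and the vertical axis the log2 ratio of APOE2 to APOE3 in smooth muscle cells. Dashed lines mark 1.5-fold, past which 176 genes lay above (red) and 149 below (dark blue), with Acta2, Myh11 and Apoe between the lines and Lcn2 and Spp1 at the top.

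Mt1 and Mt2, the metallothioneins, bind zinc and copper and are turned on by metals, glucocorticoids and oxidants. Mt1 was at 1480 CPM in APOE2, 454 in APOE3 and 760 in APOE4. Mt2 was at 221, 62.6 and 108 CPM. APOE2 was thus the highest library for both genes, and APOE4 lay between. The APOE2 to APOE3 difference was 3.26-fold for Mt1 (log2 1.71, 1.69 to 1.72) and 3.53-fold for Mt2 (log2 1.82, 1.78 to 1.86). The signal was spread over the cells, since the cells that held 90% of Mt1 UMIs numbered 3278 in APOE2 and 3046 in APOE3. Under every other choice of cells or scaling tried, the log2 ratio stayed between 1.00 and 1.96 for Mt1 and between 1.08 and 2.04 for Mt2, with the lowest values in cells with at least 4% of Acta2 and Tagln. In fibroblasts (cells with at least 0.5% Dcn and under 2% of Acta2 and Tagln, 1432 in APOE2 and 728 in APOE3) the log2 ratio was 1.63 (1.59 to 1.67) for Mt1 and 1.96 (1.87 to 2.05) for Mt2. In macrophages (at least 3 C1q UMIs and under 2% of Acta2 and Tagln, 434 and 127 cells) it was 0.23 (0.12 to 0.36) for Mt1 and 1.12 (0.67 to 1.63) for Mt2.

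The genes are neighbours on chromosome 8, with start sites 6471 bases apart, and both promoters are shown because the pair differed together and is known to share a regulator, the metal-responsive factor MTF1. Each sequence runs from 250 bases before to 50 after the start, from RefSeq on GRCm38.p6, plus strand, and capitals mark the core letters of the metal response element, searched as TGCACNC and TGCGCNC on both strands. The Mt1 window is chr8:94178839-94179138 and the Mt2 window chr8:94172368-94172667.
Mt1: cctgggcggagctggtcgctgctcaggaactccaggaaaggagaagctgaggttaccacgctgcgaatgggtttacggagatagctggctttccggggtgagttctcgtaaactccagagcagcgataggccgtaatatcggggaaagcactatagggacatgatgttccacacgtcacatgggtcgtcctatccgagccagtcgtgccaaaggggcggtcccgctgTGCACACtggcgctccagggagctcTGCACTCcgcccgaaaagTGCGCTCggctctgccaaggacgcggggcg
Mt2: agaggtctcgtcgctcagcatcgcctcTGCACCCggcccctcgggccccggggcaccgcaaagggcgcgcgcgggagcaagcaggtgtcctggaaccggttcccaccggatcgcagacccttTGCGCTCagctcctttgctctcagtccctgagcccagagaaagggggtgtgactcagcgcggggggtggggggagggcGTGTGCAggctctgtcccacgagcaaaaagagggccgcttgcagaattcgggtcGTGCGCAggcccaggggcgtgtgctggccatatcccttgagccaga
The Mt1 window held 3 matches and the Mt2 window 4, none of which overlapped. Among 32851 promoters of this length, 12.6% held TGCACNC and 15.4% TGCGCNC, 1.97% held at least 3 matches of either and 0.518% at least 4. A match is a description of the letters and not a measured binding site.

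The glucocorticoid list holds both metallothioneins. Of its 15 measured members, 4 were at least 1.5-fold higher and 0 lower, against 1.79% and 1.52% of all genes. The 4 were Mt1, Mt2, Fkbp5 and Sult1a1. Of these, Fkbp5 was under 5 CPM in APOE3 and was measured only through its APOE2 level. The list was also chosen with earlier results of these data known, so the count is a description and supports nothing about the list. The list's median log2 ratio was 0.07 and turned to -0.03 in cells with at least 4% of Acta2 and Tagln. Fkbp5, a chaperone of the glucocorticoid receptor and a usual target of it, was at 14.0 CPM in APOE2, 4.91 in APOE3 and 4.63 in APOE4 (log2 ratio 1.51, 1.37 to 1.66). Sult1a1, a sulfotransferase, was at 28.7, 15.3 and 12.0 CPM (log2 0.91). Sgk1, a kinase induced by the same hormones, went the other way at 94.6, 123 and 176 CPM (log2 -0.38). In fibroblasts the Fkbp5 log2 ratio was -0.28 (-0.44 to -0.12), opposite in sign to smooth muscle, while the metallothioneins had the same sign in both. Fkbp5 and Sult1a1 were picked after their values were seen. Of 27 measured genes for oxidant handling, 3 were higher (both metallothioneins and the glutathione transferase Gsta4 at log2 0.69) and 0 lower. Hmox1, which breaks down haem, was at 10.4, 13.5 and 16.2 CPM.

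Genes for making and taking up cholesterol were lower in APOE2 in part. Of 22 measured members, 4 were at least 1.5-fold lower and 0 higher (1.52% and 1.79% of all genes), 20 of the ratios lay below 0, and the median was -0.26, between -0.46 and -0.18 under every alternative. Insig1, which holds the sterol sensor complex in the endoplasmic reticulum, was at 13.7 CPM in APOE2, 23.6 in APOE3 and 21.9 in APOE4. The APOE4 level thus lay near that of APOE3, and the log2 ratio was -0.78 (-0.87 to -0.69). Sqle (squalene epoxidase) was at 9.62, 15.3 and 11.9 CPM (log2 -0.67) and was named after its values were seen. Another enzyme of the same path was near level. Hmgcs1 was at 35.1, 38.2 and 41.3 CPM, also named after its values were seen. In the cells with a lower share of stress transcripts, split at the median, the Insig1 log2 ratio was -0.29 and 0 genes of the list were past 1.5-fold. In cells with at least 4% of Acta2 and Tagln 1 was lower, and in cells without a Hox UMI 9 were. The count of lower genes over all genes also rose in cells without a Hox UMI, as given below, so this rise is not particular to the list.

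In a list of cholesterol efflux, lysosomal lipid handling and some lipoprotein receptor genes, 1 of 21 measured members was higher and 0 lower. The shares over all genes were 1.79% and 1.52%. The higher gene was Abca1, the transporter that loads cholesterol onto apolipoprotein A-I. It was at 23.1 CPM in APOE2, 10.9 in APOE3 and 17.6 in APOE4. The 2.11-fold difference (log2 1.08, 0.98 to 1.18) was seen in every alternative (0.69 to 1.36) and in each range of cell depth, with log2 ratios of 0.69 in cells with 5000 to 10000 UMIs and 1.07 in cells with at least 20000. It rested on many cells, with 90% of its UMIs in 1492 APOE2 and 826 APOE3 cells. In fibroblasts Abca1 had a log2 ratio of 0.28 (0.16 to 0.40). The LXR gene Nr1h3, whose product induces Abca1 when sterols are high, was at 7.46, 6.01 and 4.72 CPM (log2 0.31). Among genes for fatty acid uptake and lipid droplets, 2 of 16 were higher and 1 lower, against 1.79% and 1.52% of all genes. Fabp4, a fatty acid carrier, was at 337, 148 and 124.6 CPM (log2 1.19). Lpl, lipoprotein lipase, was at 44.5, 27.8 and 14.9 CPM (log2 0.68) and its ratio was 0.27 in cells without a Hox UMI. Fabp3, the heart-type carrier, was at 37.4, 64.7 and 78.7 CPM (log2 -0.79).

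Genes for the contractile apparatus differed little. None of 27 measured members differed by 1.5-fold in either direction. Acta2 and Tagln are among them, and the rule chose cells by these genes, so the count depends in part on the rule. Over all genes 96.7% lay within 1.5-fold, so this count is near the share of all genes. The log2 ratios lay between -0.47 (Actn1) and 0.44 with a median of -0.05, which was 0.03 in cells with at least 4% of Acta2 and Tagln. Myh11, the heavy chain of smooth muscle myosin, was at 2656 CPM in APOE2, 2562 in APOE3 and 2708 in APOE4. Cnn1 (calponin) was at 1367, 1414 and 1352 CPM, and Myocd, the coactivator that drives these genes, at 186, 175 and 202 CPM. Acta2 at 24165, 27919 and 26353 CPM and Tagln at 15653, 17091 and 15700 CPM were used by the rule and are given as description. Likewise 0 of 19 genes for calcium handling and 0 of 13 vasoactive receptors passed 1.5-fold, also near that share, with medians of 0.15 and -0.10. Where the counts were this large the intervals were narrow (Myh11 log2 0.05, 0.04 to 0.06).

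Nuclear genes of the respiratory chain differed little as well. None of 75 measured members passed 1.5-fold. Over all genes 96.7% lay within it, so this count is near the share of all genes. The median was 0.03, and it was -0.03 in cells with 10000 to 20000 UMIs. The 13 transcripts made from mitochondrial DNA stood apart from them, with 5 higher and 1 lower, against 1.79% and 1.52% of all genes. Their median was 0.51 (0.42 to 0.54 over the alternatives). Their summed level was 22630 CPM in APOE2, 16927 in APOE3 and 28315 in APOE4. APOE4 was thus the highest library, and APOE3 the lowest. mt-Nd6, the only protein gene on the light strand, was at 22.3, 8.51 and 16.2 CPM (log2 1.39), and it overlaps mt-Nd5 at its end, which was at 403, 236 and 408 CPM (log2 0.77). mt-Nd3 went the other way with 154, 280 and 358 CPM (log2 -0.86). The mean share of mitochondrial transcripts per cell was 2.45%, 1.84% and 3.04% in the same order, and the part of cell quality in these values was not tested.

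**Figure D2:**
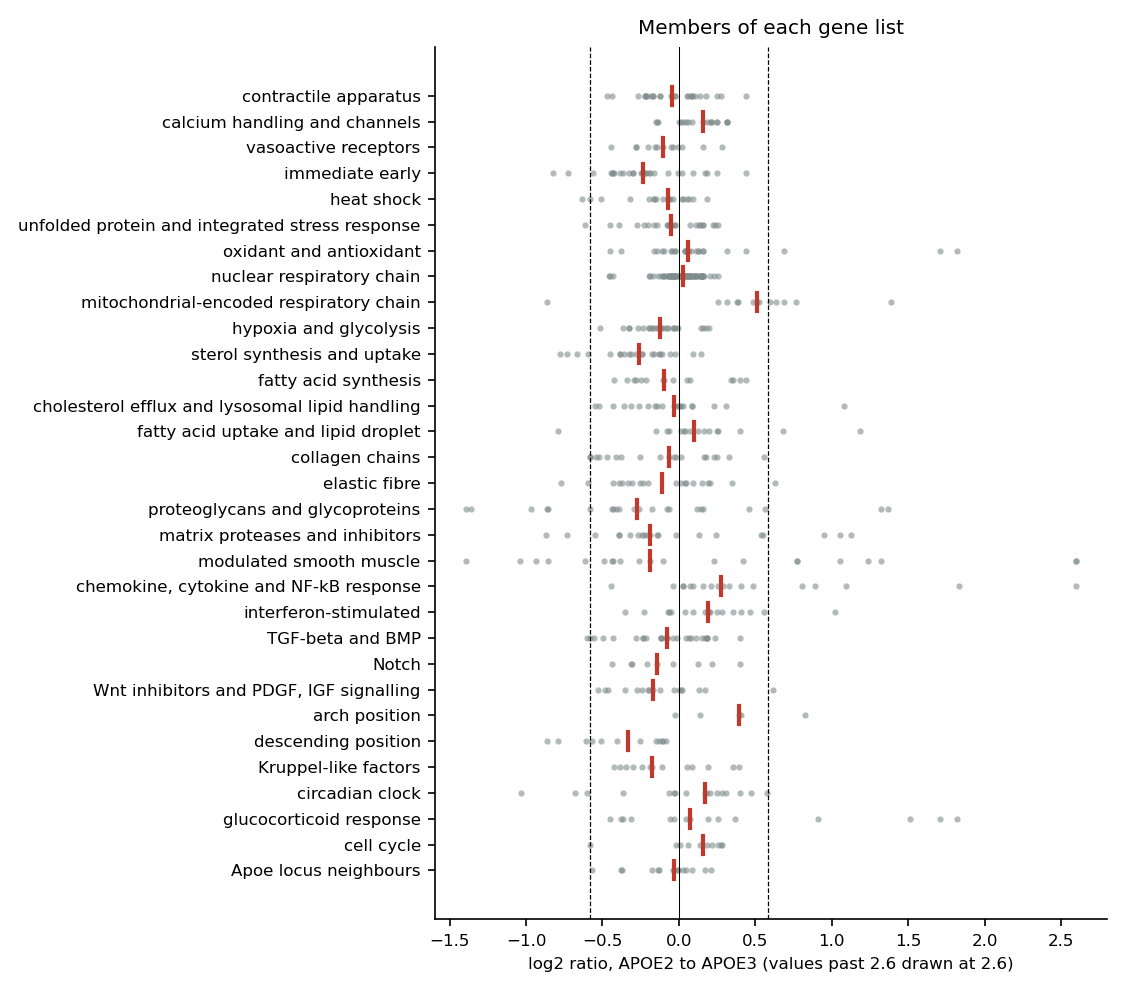
Each row is 1 gene list and each grey point 1 member with a mean of at least 5 CPM; the horizontal axis is the log2 ratio of APOE2 to APOE3, red bars are medians and dashed lines mark 1.5-fold. The contractile and nuclear respiratory lists lie within the lines, the mitochondrial-encoded list is shifted to a median of 0.51, and values past 2.6 in the modulated and NF-kB lists are drawn at 2.6.

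The list of modulated smooth muscle genes split in both directions. Of 21 measured members, 7 were at least 1.5-fold higher and 5 lower, against 1.79% and 1.52% of all genes, with a median of -0.19 that turned to 0.22 in the cells with a lower stress share. Among those higher in APOE2 were Lcn2, Spp1, Lum, C3, Timp1 and Vcam1. Of these, Lcn2 and Spp1 were under 5 CPM in APOE3, were measured only through their APOE2 level and had to count as higher. The count of higher members is thus a description and supports nothing about the list. Lower in APOE2 were Acan, Cytl1, S100a4, Fn1 and Sox9, of which Acan (aggrecan), Cytl1 and Sox9 are known from cartilage. Acan was at 13.8, 36.2 and 19.3 CPM (log2 -1.39) and Sox9, the chondrocyte regulator, at 8.09, 12.4 and 18.9 CPM (log2 -0.61). Fn1 (fibronectin) was at 294, 533 and 430 CPM (log2 -0.86) and S100a4 at 334, 639 and 471 CPM (log2 -0.94). Runx2 and Msx2, regulators of bone formation, stayed under 1.6 CPM in all 3 libraries. Klf4, a factor that takes part in modulation, was at 162, 185 and 458 CPM (log2 -0.19), and Wif1, a Wnt inhibitor, at 93.3, 105 and 83.0 CPM (log2 -0.17).

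Spp1 (osteopontin) had the highest ratio among genes of at least 20 CPM, and it rested on very few cells. Its level was 109 CPM in APOE2, 2.05 in APOE3 and 0.447 in APOE4 (log2 5.73, 5.54 to 5.93). One APOE2 cell held 6053 of the 11939 UMIs, and 2 cells of 6600 held 90% of them. Cells with at least 10 Spp1 UMIs numbered 12 in APOE2, 5 in APOE3 and 1 in APOE4. The sign turned in cells without a Hox UMI, with a log2 ratio of -0.57. The 12 APOE2 cells had Myh11 at 914 CPM against 2664 in the remaining APOE2 smooth muscle cells, and Acta2 at 19390 against 24187. Summed over the 12 cells, Lcn2 was at 2612 CPM against 16.2 and Timp1 at 5557 against 26.6. Vcam1 was at 1914 against 102 and Lum at 1827 against 24.7. How these UMIs were spread over the 12 cells is not given here. In the 5 APOE3 cells with at least 10 Spp1 UMIs, Timp1 was at 479 CPM against 24.0 and Vcam1 at 723 against 63.6. Lcn2 was at 0 in those APOE3 cells against 0.485, and Lum at 4.79 against 13.2. The fibroblast gene Dcn, which the rule limits, was at 1284 CPM in the 12 APOE2 cells against 92.1. The macrophage gene Lyz2 was at 8.07 CPM (4 UMIs) against 4.52 and Cd68 at 0 against 0.643, counts too low to describe the cells. Of the 12 cells, 4 held a macrophage marker UMI, and the neutrophil gene S100a9 was at 32.3 against 14.6 CPM. Their median of 29494 UMIs was above the 14564 of all APOE2 smooth muscle cells, and the part of other cells' RNA or of doublets in these values was not tested. These 12 cells were picked by Spp1 after its values were seen and are described only. In sums over a library, fewer cells of a kind and less RNA in each cannot be told apart.

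Timp1, an inhibitor of matrix metalloproteases, was also high in those cells. It was at 51.7 CPM in APOE2, 24.9 in APOE3 and 18.2 in APOE4 (log2 1.05, 0.99 to 1.12), and stayed past 1.5-fold in 10 of 19 alternatives. Without the cells with at least 10 Spp1 UMIs its level was 26.6 CPM in APOE2 and 24.0 in APOE3. Without cells of over 50000 UMIs, of which there were 35 and 92, the log2 ratio was 0.01. Lum (lumican) was at 32.9, 13.1 and 6.52 CPM (log2 1.32), and the sign turned to -0.22 in cells with 10000 to 20000 UMIs. Vcam1, an adhesion molecule for leukocytes, was at 111, 64.9 and 41.8 CPM (log2 0.77), and at 102 and 63.6 CPM in APOE2 and APOE3 without the Spp1-rich cells. It was named after its values were seen.

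The chemokine, cytokine and NF-kB list had a median of 0.27 (0.07 to 0.43 over the alternatives). Of its 18 measured genes, 5 were higher and 0 lower, against 1.79% and 1.52% of all genes. Of these 5, only Cxcl1 reached 5 CPM in APOE3, and Lcn2, Icam1, Cxcl2 and Tnfaip3 were measured only through their APOE2 level, so the count is a description and supports nothing about the list. Lcn2 (lipocalin 2), an acute phase protein that binds bacterial iron carriers, was at 27.9 CPM in APOE2, 0.484 in APOE3 and 0.0194 in APOE4 (log2 5.84, 5.45 to 6.27). APOE2 alone had more than 1 CPM. In APOE2 56 cells held 90% of its UMIs, and in APOE3, with 52 UMIs in all, 10 cells did. The APOE2 fibroblasts had Lcn2 at 371 CPM against 2.03 in APOE3 and 3.08 in APOE4 fibroblasts, and the part of free or carried-over fibroblast RNA in the smooth muscle value was not tested. Serpina3n, another acute phase gene named after its values were seen, was at 10.4, 0.540 and 2.01 CPM (log2 4.25), and in fibroblasts at 355, 47.1 and 171 CPM. Cxcl1, a neutrophil chemokine, was at 22.5, 6.31 and 23.3 CPM, so that APOE4 was level with APOE2 (log2 of APOE2 to APOE3 1.83, 1.71 to 1.96). Icam1 was at 7.31, 3.43 and 8.60 CPM, Tnfaip3, an inhibitor of the pathway, at 7.52, 4.06 and 10.0 CPM, and C3, the central complement protein, at 13.0, 5.51 and 3.28 CPM. The Icam1 log2 ratio was 1.09 over all cells and 0.29 in cells with 10000 to 20000 UMIs, and that of C3 was 1.24 and 0.40. In cells with 5000 to 10000 UMIs the ratios were -0.68 for Icam1 and -0.70 for C3, and with at least 20000 UMIs 1.78 and 1.98. Icam1, Tnfaip3 and C3 were named after their values were seen. Nfkbia, which is induced by the pathway and holds it in check, was at 272, 280 and 616 CPM (log2 -0.04). Of 18 interferon-stimulated genes 1, the proteasome subunit Psmb8, was higher, at 9.34, 4.60 and 3.69 CPM (log2 1.02). None of this list was lower, where 1.79% of all genes were higher and 1.52% lower. Psmb8 was also measured only through its APOE2 level, so this count supports nothing about the list.

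**Figure D3:**
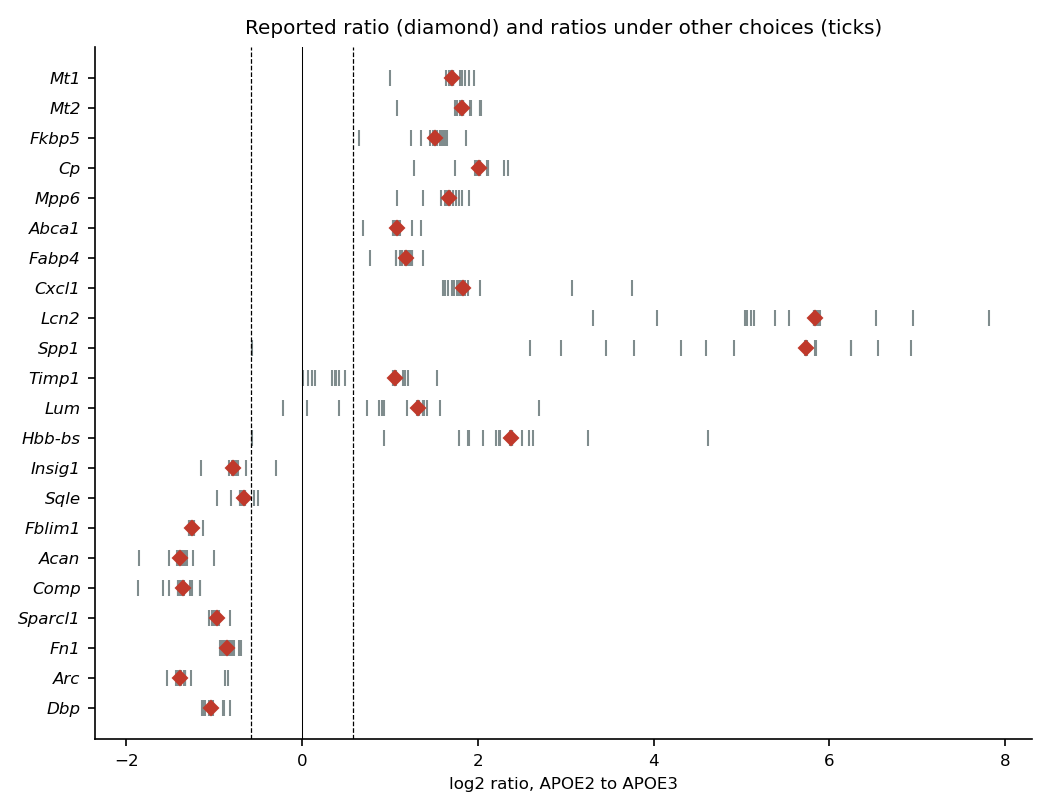
For each gene the red diamond is the log2 ratio of APOE2 to APOE3 as reported and each grey tick the ratio under 1 other choice of cells or scaling, with dashed lines at 1.5-fold. Mt1, Cp, Fblim1 and Sparcl1 keep to 1 side, while Timp1 reaches 0.01, Lum -0.22 and Hbb-bs and Spp1 -0.57; the ticks of Spp1 at 6.92 and Lcn2 at 6.53 leave out the 1% richest cells, which removes every APOE3 cell with a UMI of the gene by construction, and carry no information on the ratio.

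Matrix genes past 1.5-fold lay on both sides, more of them lower in APOE2. Of 22 measured proteoglycans and glycoproteins, 5 were lower and 2 higher, against 1.52% and 1.79% of all genes (median -0.28, and -0.36 to -0.22 over the alternatives). Comp, a cartilage matrix protein also made in arteries, was at 11.5 CPM in APOE2, 29.4 in APOE3 and 9.38 in APOE4 (log2 -1.36). APOE3 was thus the library that stood apart for Comp, and the same held for Srpx2 at 12.5, 28.3 and 15.1 CPM (log2 -1.18). Sparcl1, a secreted glycoprotein, was at 241, 472 and 341 CPM (log2 -0.97) and Tnc (tenascin C) at 19.3, 35.01 and 30.5 CPM (log2 -0.86). Thbs1 (thrombospondin 1) was higher at 14.1, 5.47 and 6.81 CPM (log2 1.36). Pcolce2, an enhancer of procollagen processing, was at 16.5, 41.6 and 61.4 CPM (log2 -1.33). None of 19 collagen chains passed 1.5-fold, where 96.7% of all genes lay within it, so this count is near that share. The ratios lay between -0.58 (Col6a2) and 0.56 (Col16a1). Col6a2 lay at the limit, and up to 4 chains were lower under other settings (with the mean of the CPM of each cell). Of 20 elastic fibre genes, 1 was higher and 2 lower, against 1.79% and 1.52% of all genes. Mfap4 was higher at 1013, 655 and 520 CPM (log2 0.63), and Mfap2 (log2 -0.77) and Ecm1 (log2 -0.60) were lower. Of 9 measured fibroblast markers, which are matrix or secreted proteins in part, 3 were lower (Clec3b, Pi16 and Serpinf1) and 1 higher (Lum). The shares over all genes were 1.52% and 1.79%. The median of these markers was -0.47, and the part of fibroblast RNA in the matrix values was not tested.

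Among matrix proteases and their inhibitors, 3 of 21 were higher and 2 lower, against 1.79% and 1.52% of all genes. Timp4 was at 38.1, 17.4 and 21.7 CPM (log2 1.13) and Adamts15 had a log2 ratio of 0.95. Serpine2, an inhibitor of thrombin and plasminogen activators, was at 674, 1117 and 813 CPM (log2 -0.73), and Plat, tissue plasminogen activator, at 37.2, 67.9 and 47.2 CPM (log2 -0.87). Both were lower in every alternative. Several of these genes had the other sign in fibroblasts. The fibroblast log2 ratio was 1.29 (1.22 to 1.35) for Fn1, 1.22 (1.14 to 1.29) for S100a4 and 1.73 (1.62 to 1.84) for Serpine2, where all 3 were lower in smooth muscle. For Sparcl1 it was 0.07 (-0.07 to 0.21) and for Comp -0.16. Fn1 and S100a4 were named after their values were seen.

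Further genes stood among the 12 highest and the 12 lowest ratios of genes with at least 20 CPM. Cp (ceruloplasmin), the copper carrier of plasma, was at 32.3 CPM in APOE2, 7.99 in APOE3 and 6.85 in APOE4 (log2 2.01, 1.91 to 2.12), and Mpp6, a membrane scaffold, at 130, 40.7 and 37.9 CPM (log2 1.67). In these genes APOE4 lay near APOE3. Fblim1, which links filamin to integrin adhesions, was at 424, 1011 and 836 CPM (log2 -1.25, -1.27 to -1.24), and Art3, a mono-ADP-ribosyltransferase family member, at 49.8, 117 and 91.3 CPM (log2 -1.23). Fblim1 was lower at each depth, from -1.29 in cells with 5000 to 10000 UMIs to -1.22 at 20000 and more, and its log2 ratio in fibroblasts was -1.52. Arc, an immediate early gene, was at 30.2, 79.0 and 78.3 CPM (log2 -1.39), and Snhg3, a small nucleolar RNA host gene, at 23.7, 47.3 and 53.2 CPM (log2 -0.99). Gm12840, a gene model, was at 72.4, 25.5 and 24.7 CPM. Tnnt2, troponin T of heart muscle, was at 206, 88.8 and 40.5 CPM (log2 1.21), Abi1, an actin regulator, at 285, 106 and 162 CPM (log2 1.43), and Mthfd2, a mitochondrial folate enzyme, at 38.7, 14.5 and 14.9 CPM (log2 1.41), all 3 named after their values were seen. In fibroblasts Cp had a log2 ratio of 0.22, Tnnt2 was at -0.68, and Abi1 was at 2.00.

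**Figure D4:**
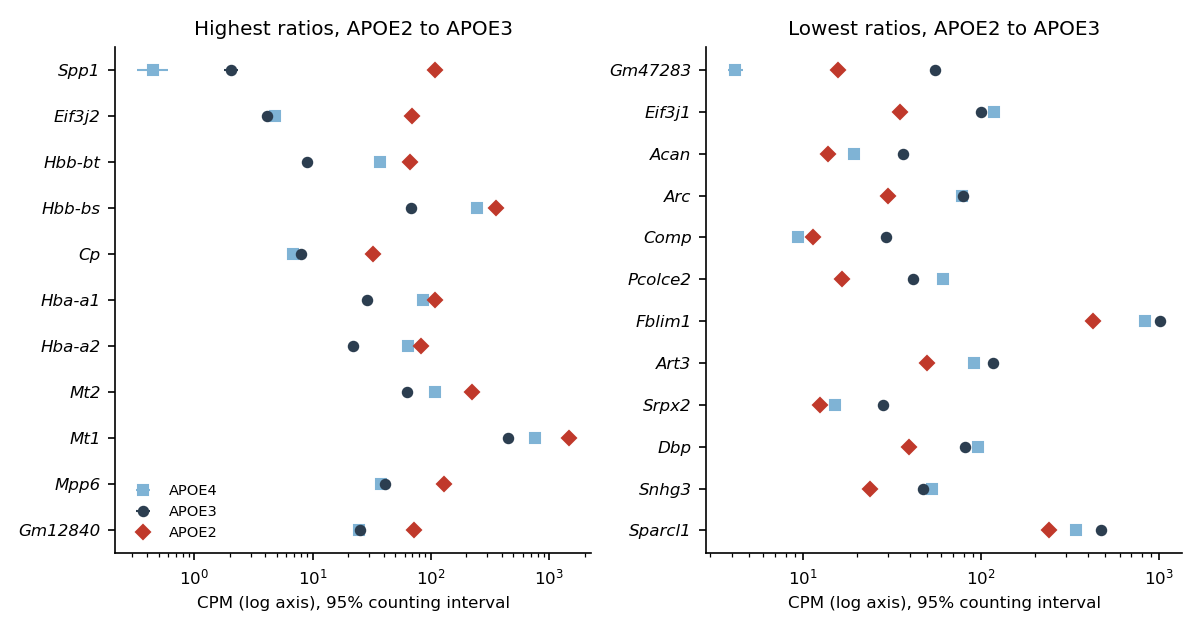
Levels of genes from the 12 highest (left, 11 of them drawn) and the 12 lowest (right) APOE2 to APOE3 ratios among genes with a mean of at least 20 CPM; the horizontal axis is CPM on a log scale, symbols are the 3 libraries and bars 95% counting intervals, often smaller than the symbol. APOE4 (squares) lies near APOE3 for Eif3j2, Cp and Mpp6 and near APOE2 for Comp and Srpx2.

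Eif3j1 and Eif3j2 are near-identical copies of a translation initiation factor gene. Eif3j2 was at 69.4 CPM in APOE2, 4.10 in APOE3 and 4.84 in APOE4, and Eif3j1 at 35.1, 100 and 119 CPM. Of the words of 31 bases in the longest Eif3j2 coding transcript, 94.0% are also in Eif3j1 transcripts. Summed, the pair was at 104.5, 104.3 and 123.4 CPM, with an APOE2 to APOE3 log2 ratio of 0.00 (-0.04 to 0.04). The 2 ratios (4.08 and -1.51) thus had opposite signs with no difference in the sum, the share of the sum on Eif3j2 being 66.4%, 3.93% and 3.92%, and which copy was transcribed is uncertain from these counts. The same opposite pair was seen in fibroblasts, at 4.84 and -1.59. Gm47283, a gene model on chromosome Y, was at 15.6, 55.3 and 4.18 CPM (log2 -1.82), while Ddx3y on the same chromosome was at 78.1, 81.3 and 77.7 CPM.

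The haemoglobin genes Hbb-bt, Hbb-bs, Hba-a1 and Hba-a2 were all among the 12 highest, with log2 ratios of 2.89, 2.38, 1.91 and 1.91. Hbb-bs was at 357 CPM in APOE2, 68.5 in APOE3 and 248 in APOE4, and 26 APOE2 cells held 90% of its UMIs. Without the 1% of cells that were richest in each gene, the sign turned for all 4, to between -0.89 and -0.40. The copies within each pair can share reads, so their separate values are uncertain, and the part of red cell RNA was not tested. S100a9 and S100a8, neutrophil genes, were at 14.7, 7.02 and 0.359 CPM and at 9.55, 6.01 and 0.223 CPM, with 1 APOE3 cell holding over 90% of that library's UMIs, and both signs turned in cells with at least 4% of Acta2 and Tagln.

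Position along the aorta is marked by Hox genes, which are on in the descending part, and by Hand2 and others in the arch. All 12 measured genes of the descending list had ratios below 0 (3 at least 1.5-fold lower, 0 higher, median -0.33). Over all genes 1.52% were lower and 1.79% higher, and 4637 of 9818 ratios lay below 0. The descending list holds 25 genes, of which 23 are Hox genes, so its counts need not be of Hox genes alone. It summed to 194, 246 and 271 CPM. Hoxb6 was at 8.05 CPM in APOE2, 13.9 in APOE3 and 15.0 in APOE4 (log2 -0.79), and Hoxb4, at 20.1, 21.6 and 18.9 CPM, was near level. Of 5 measured arch genes 1, Hand2, was higher, at 68.9, 38.9 and 26.5 CPM (log2 0.83), against 1.79% of all genes. Cells with a Hox UMI made up 77.2% of APOE2 and 88.0% of APOE3 cells, and 48.2% and 55.1% once cells were thinned to 5000 UMIs. The makeup of the pools by aortic segment was not measured, and its part in the ratios was not tested. Cells with a Hox UMI (5094 in APOE2 and 4319 in APOE3) and cells without one gave log2 ratios of 1.64 and 1.96 for Mt1, 1.04 and 1.36 for Abca1, and -1.25 and -1.23 for Fblim1. Other values moved under the same split, since without a Hox UMI the log2 ratio was -0.57 for Spp1 and 0.27 for Lpl, and 255 genes were lower in place of 149.

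Stress genes respond to tissue handling and clock genes to the time of day. The immediate early list, which leaves out Arc, had 29 measured genes. Of these, 2 were lower (Fosl1 and Myc) and 0 higher, against 1.52% and 1.79% of all genes. Both were under 5 CPM in APOE2 (3.75 and 4.15) and were measured only through their APOE3 level. Their count thus supports nothing about the list. The list's median was -0.24. In cells with 10000 to 20000 UMIs 2 were higher and 0 lower, with a median of 0.00, and the median was 0.08 in the cells with a lower stress share, a split made on these same genes. Of 20 heat shock genes 1, Hspa1a, was lower (1400, 2173 and 2336 CPM), against 1.52% of all genes. Hspa1a shares reads with its copy Hspa1b, at log2 -0.51. Immediate early and heat shock genes together made up 2.74% of APOE2, 3.17% of APOE3 and 4.22% of APOE4 UMIs. Of 25 genes of the unfolded protein response 1, Pdia4, was lower (log2 -0.61), against 1.52% of all genes. Among 17 circadian genes, 3 were lower and 0 higher, against 1.52% and 1.79% of all genes, while 10 ratios lay above 0 and the median was 0.17. Dbp, a clock output factor, was at 39.6, 80.9 and 96.1 CPM (log2 -1.03), and Nr1d1, the repressor REV-ERB alpha, at 62.5, 94.9 and 126 CPM (log2 -0.60). Bhlhe41 was at 10.5, 16.8 and 13.9 CPM (log2 -0.68), while Cry1 at 8.70, 5.84 and 6.85 CPM and Npas2 at 26.9, 19.4 and 14.5 CPM lay above 0. Dbp was lower in fibroblasts too (log2 -0.79). The hour at which each pool was taken is not given in the sources used here, and its part in these values was not tested.

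**Figure D5:**
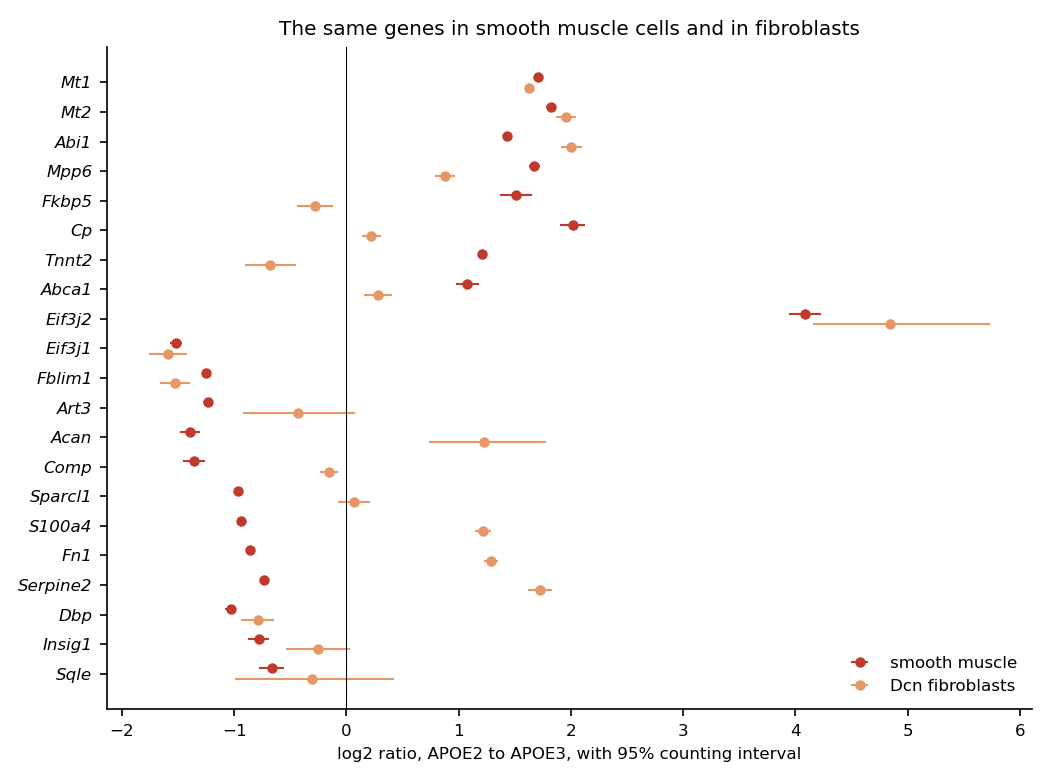
The horizontal axis is the log2 ratio of APOE2 to APOE3 with 95% counting intervals, for smooth muscle cells (red) and Dcn fibroblasts (orange) of the same libraries. Mt1, Mt2, Abi1, Eif3j1, Eif3j2, Fblim1 and Dbp lie on the same side in both, whereas Fn1, S100a4, Serpine2, Acan, Fkbp5 and Tnnt2 lie on opposite sides.

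The remaining lists gave few genes past 1.5-fold, where 1.79% of all genes were higher and 1.52% lower. Smad6, an inhibitor of BMP signalling, was the only one of 28 TGF-beta and BMP genes (16.5, 24.99 and 25.7 CPM, log2 -0.60), and Id1, a target of BMP, lay just inside the limit at 151, 226 and 352 CPM (log2 -0.58). Frzb, a secreted Wnt inhibitor, was the only one of 17 Wnt, PDGF and IGF genes (23.8, 15.5 and 12.2 CPM, log2 0.62), and its log2 ratio was 0.02 in cells with 10000 to 20000 UMIs. Igfbp7 was at 4642, 6702 and 5483 CPM (log2 -0.53). None of 9 Notch, 26 hypoxia and glycolysis, 15 fatty acid synthesis, 13 Kruppel-like factor, 10 cell cycle and 15 listed Apoe neighbour genes passed it, and Hif1a was at 85.9, 90.9 and 106 CPM. Sost (sclerostin), named after its values were seen, was at 643, 1067 and 977 CPM (log2 -0.73).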

How the data were processed

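Male APOE gene replacement mice were studied by droplet single-cell RNA sequencing, with 1 pooled aortic library for each genotype. Reads had been mapped by the authors to mouse mm10, the file headers naming Cell Ranger 7.0.1, and the deposited values are raw UMI counts per gene and barcode, without normalization. No other unit was used.

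UMIs were summed over the cells of the rule in each library and given as counts in 1000000 UMIs (CPM) with exact Poisson intervals. Log2 ratios had 0.5 UMIs added to each count and exact conditional binomial intervals, all at 95%. The scripts were tested on simulated counts. A gene was called higher or lower past 1.5-fold, among genes with a mean of at least 5 CPM. A count of 0 was set to 3 counts in bounds. With 109409985 and 107438328 UMIs behind the smooth muscle values, counting error is small, and variation between mice is unknown. Positions are from GENCODE vM21 for 32235 of 32285 genes.

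Scrublet (scanpy 1.11.5) called 0 and 2 doublets, which means that its automatic call had not worked, so doublets were kept and the 5% of cells with the highest scores were left out in an alternative. Alternatives changed the limits on UMIs, markers, Dcn and mitochondrial share, the depth range (also by thinning cells to 5000 UMIs), the scaling, the weight of deep cells, Hox status, the stress share, the filter on low genes and the fold. Chosen after seeing the data were a limit of 50000 UMIs, no macrophage marker UMI, leaving out Spp1-rich cells, and leaving out the 1% of cells richest in the gene.

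Named were the 12 highest and 12 lowest ratios among genes of at least 20 CPM, the 2 highest and 2 lowest members of each list and a fixed set of smooth muscle genes, not all of which are described, since some items are not reported here; other names were chosen after their values were seen. The members and lists were chosen with earlier results of these data known. Marker lists not described in the report were those for T and B lymphocytes, endothelium, adipocytes, neural and Schwann cells, mesothelium and thymocytes, which summed to 3.25, 278, 54.8, 10.6, 711, 306 and 10.1 CPM in APOE2 and to 1.11, 248, 51.1, 20.4, 756, 438 and 8.92 CPM in APOE3. Python 3.11.15 was used, and the packages were pandas 2.3.3, scipy 1.17.1 and numpy 2.4.6.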

Additional observations from a re-analysis of the deposited data

How the results depend on the processing

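No paired analysis was possible because there was 1 library for each genotype. The 176 higher and 149 lower genes became 95 and 138 in cells with at least 4% of Acta2 and Tagln, where the share of higher among them was 40.8% against 54.2%. In cells without a Hox UMI 255 genes were lower. At a mean of at least 1 CPM the counts were 475 and 276, and at 20 CPM 69 and 59. At 2-fold they were 55 and 28 (66.3% higher). The size of these counts depends on the number of genes tested and the fold. Why the share of higher genes moved with them was not tested. Other alternatives kept both counts within 1.5 times, and the median of all genes between -0.01 and 0.02. Of 83 named genes past 1.5-fold, 47 were past it in every alternative and 72 kept their sign. The range of 5000 to 10000 UMIs was not among these alternatives, and in it the signs of Icam1 and C3 turned, as given above. The sign turned without the richest 1% of cells for Hba-a2 (-0.80), Hba-a1 (-0.89), Hbb-bs (-0.57) and Hbb-bt (-0.40), in cells without a Hox UMI for Spp1 (-0.57), in the cells with a lower stress share for Fosl1 (0.10), Myc (0.35) and Clec3b (0.12), in cells with 10000 to 20000 UMIs for Lum (-0.22), and in cells with at least 4% of Acta2 and Tagln for S100a8 (-0.995) and S100a9 (-0.77). The cause was not tested. Counting error limits genes of few UMIs, while the range of cell depth also moved lists of abundant genes, the immediate early median going from -0.24 to 0.00 and the elastic fibre median from -0.11 to -0.33 in cells with 10000 to 20000 UMIs. Without a second library no alternative bears on variation between pools.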
